A study of Homo sapiens with 4 samples.

Results

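The genes of the FGF receptor family, FGFR1, FGFR2, FGFR3, FGFR4 and FGFRL1, were examined for p63 binding in HSC-5 cells, a cell line from a human squamous cell carcinoma of the skin. The 5 genes were taken by symbol from a RefSeq table of 20037 protein-coding genes on GRCh38, and all 5 were found. The series has 4 samples, 2 inputs without antibody and 2 p63 immunoprecipitates (IPs) made with Anti-p63 (D9L7L). All came from cells grown in DMEM with serum and fixed with 1% formaldehyde for 12 min, and no treatment or second genotype was compared. The family was chosen by the replicate 1 peaks themselves, on their number, tags, width and position, so its counts are given as a description, with no test. Peaks of IP replicate 1 were placed on genes. The list of IP replicate 2 follows another numbering and was only matched by spacing, and no file of an input was analysed here. Whether the IPs came from separate cultures is not in the labels.

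FGF receptors are cell surface tyrosine kinases that bind fibroblast growth factors together with heparan sulfate or a klotho co-receptor, and signal through the adaptor FRS2 to the RAS and MAP kinase cascade. FGFRL1 binds the ligands but lacks the kinase domain. In stratified epithelia, the epithelial splice form of FGFR2 receives FGF7 and FGF10 from the stroma and supports keratinocyte growth and repair. p63, a transcription factor of the p53 family, maintains the basal layer of the same epithelia, and in mouse skin FGFR2 and FGFR3 are known p63 targets.

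Of the 5 genes, FGFR2 alone held a replicate 1 peak inside its span, and that peak lay between its annotated start sites. FGFR3 had a weak peak nearby that lay inside another gene, LETM1. FGFR1, FGFR4 and FGFRL1 had no peak within 100 kb. The FGFR2 peak had 25 tags, which are reads kept in the peak after duplicate removal, with an exact 95% Poisson interval of 16.2 to 36.9 that covers counting error only. The peak near FGFR3 had 8 tags (3.45 to 15.8), the lowest number in the list.

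The sequences around the first and second FGFR2 start sites are shown because they flank the peak on either side. Both come from RefSeq (GRCh38.p14), are written on the minus strand that FGFR2 is transcribed from, and run from 250 bases before the start to 50 bases from it onward. Capitals mark those 50 bases, counted from the start base. The first lies at chr10:121598395-121598694 and the second at chr10:121596596-121596895.
FGFR2 start 1: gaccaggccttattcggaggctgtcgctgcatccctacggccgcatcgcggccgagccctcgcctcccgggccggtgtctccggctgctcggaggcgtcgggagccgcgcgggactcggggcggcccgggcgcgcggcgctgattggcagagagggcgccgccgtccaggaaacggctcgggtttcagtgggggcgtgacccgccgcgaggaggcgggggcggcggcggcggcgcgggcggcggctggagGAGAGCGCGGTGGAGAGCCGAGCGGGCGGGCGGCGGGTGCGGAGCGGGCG
FGFR2 start 2: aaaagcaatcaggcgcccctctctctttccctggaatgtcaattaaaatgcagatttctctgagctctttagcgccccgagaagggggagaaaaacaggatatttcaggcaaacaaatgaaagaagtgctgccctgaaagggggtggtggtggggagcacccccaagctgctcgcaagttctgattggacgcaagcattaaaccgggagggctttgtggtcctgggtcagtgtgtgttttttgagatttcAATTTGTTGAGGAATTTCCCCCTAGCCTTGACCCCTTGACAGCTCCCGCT

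The FGFR2 gene (gene 2263) spans 121478330 to 121598458 on chromosome 10, a length of 120.129 kb. Its peak ran from 121597059 to 121597382, a width of 324 bp, with the summit at 121597265. Measured along the direction of transcription, the summit lay 1179 bp after the first of 5 RefSeq start sites and 620 bp before the second. The peak's edges were 1013 bp and 164 bp from the first and second windows printed above, so neither printed stretch holds any of the peak. The summit was 3007 bp and 3298 bp before the next pair of starts and 65951 bp before the last. The authors' deposited table marks the peak by hand as the FGFR2 promoter, 1 of 22 such notes and the only one that names an FGF receptor. Exon positions were not used here, so the peak is not assigned to an exon or intron.

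**Figure D1:**
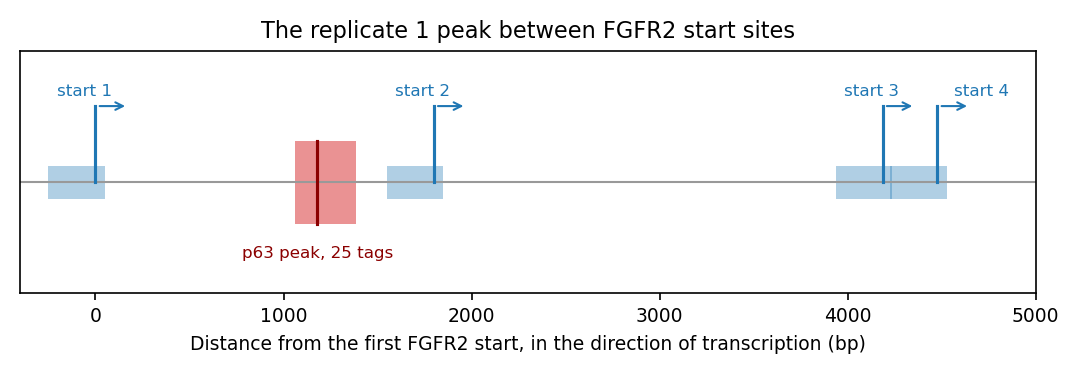
Position of the p63 IP replicate 1 peak (red, summit as a dark line) along FGFR2, in bp from the first RefSeq start in the direction of transcription; blue lines with arrows are start sites and pale blue boxes the 300-base windows around them. The summit sits 1179 bp after start 1 and 620 bp before start 2; the last start, 67130 bp from the first, is beyond the right edge.

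The first 2 start regions differ in base composition. The window of start 1 was 79.3% G and C, a level that 4.25% of 22199 windows of protein-coding genes reach, and its ratio of observed to expected CpG was 1.15. The window of start 2 was 50.3% G and C with a CpG ratio of 0.370, and those of starts 3, 4 and 5 were 50.7%, 47.3% and 50.7% G and C. The median window was 62.3% G and C with a CpG ratio of 0.737. FGFR3 had 1 window, at 86.3% G and C, a level reached by 0.140% of windows. The first window of FGFR4 was at 78.7% and that of FGFRL1 at 68.3%. No window of FGFR1 was used here.

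The 9 windows of FGFR2, FGFR3, FGFR4 and FGFRL1 were searched on both strands for letters of the p53-family site. The p53-family half-site was in none of them and in 6.21% of all windows. The spelling CATGNNNNNNCATG, 2 half-site cores at the usual spacing, was also in none of the 9 and in 0.275% of all. The looser spelling CNNGNNNNNNCNNG, which every CATGNNNNNNCATG also meets, was found 6 times in start 1 of FGFR2, 2 times in its start 2 and 0 times in the other FGFR2 windows. It was found 15 times in the FGFR3 window, 8 times and 1 time in those of FGFR4 and 2 times in that of FGFRL1, and 80.5% of all windows hold it. These letters were searched in the windows, not under the peak.

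The FGFR2 peak ranked higher by enrichment than by number of tags. Its deposited fold over local control was 49.92, the 16th highest of 3994 peaks on chromosomes, so that 0.426% of peaks reached it. Its deposited score, minus 10 times the log10 of the p-value, was 210.7 and ranked 130th. Its 25 tags ranked 494th, a count that 12.9% of peaks reached. Of the 493 peaks with more tags, 347 had a fold under 10, and their median fold was 6.13. Among the 24 peaks with the same 25 tags, the median fold was 21.9 and the FGFR2 peak had the highest. Among 315 peaks with 20 to 30 tags, 4 reached its fold, itself included, and the median width was 358 bp.

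The peak was also among the more enriched ones near any start site. Of 3762 summits on chromosomes with start sites in the RefSeq windows, 116 (3.08%) lay within 1 kb of a start of a protein-coding gene, and the median summit was 76.2 kb from one. The median peak within 1 kb had 11 tags and a fold of 15.3. By fold the FGFR2 peak was 2nd of the 116, and by tags 14th. RefSeq windows were at hand for 15843 of the 20037 genes and for none on chromosome 8. The 3.08% is therefore a lower bound and the 76.2 kb an upper bound, and both ranks could fall if every start were known.

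**Figure D2:**
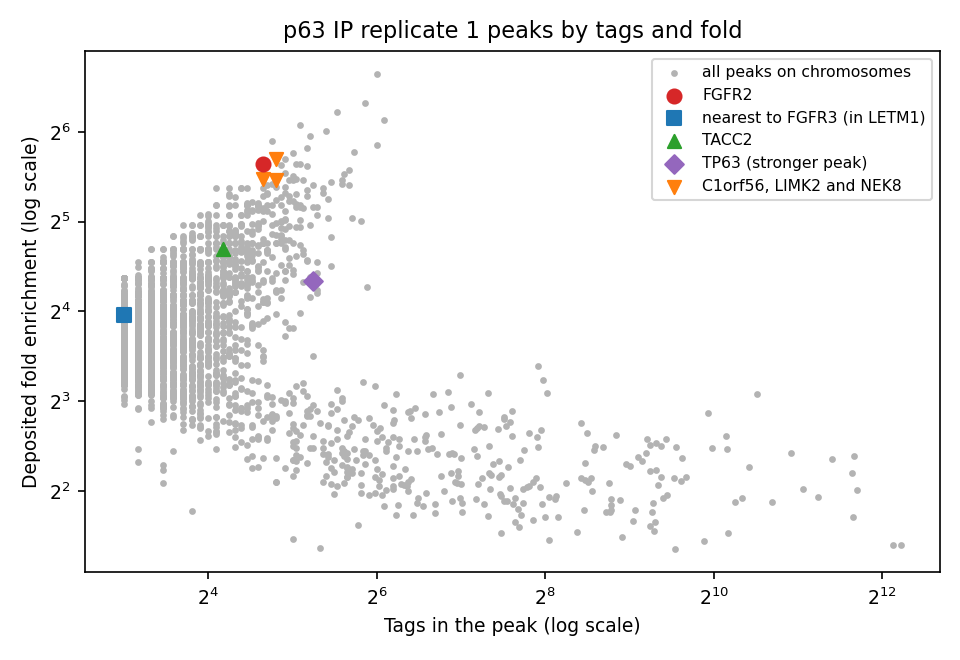
Deposited fold enrichment against tags for every replicate 1 peak on chromosomes (grey), both on log scales. The FGFR2 peak (red, 25 tags, fold 49.92) lies at the upper edge of the peaks with a like number of tags, and the peak nearest to FGFR3 (blue, 8 tags, fold 15.57) lies at the left edge.

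The genes whose strongest peak within 10 kb was most like that of FGFR2, by distance in log2 tags and log2 fold over 2037 other genes with such a peak in this 1 library, were C1orf56, LIMK2 and NEK8. The C1orf56 peak had 25 tags and a fold of 44.6. It lay 7.441 kb outside that gene but 761 bp from a start site of a protein-coding gene. CDC42SE1, which encodes a small CDC42 effector, and MLLT11 were also within 10 kb, so the peak is not assigned to C1orf56. LIMK2, a kinase that phosphorylates cofilin, had a peak of 28 tags and a fold of 51.9 inside its span. The NEK8 peak had 28 tags and a fold of 44.12, with its summit 825 bp from a start site. TRAF4 was also within 10 kb of it, so it is not assigned to NEK8 alone. For comparison, the stronger of 2 peaks in TP63, the gene of p63 itself, had more tags, 38 (26.9 to 52.2), at a lower fold of 20.22.

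FGFR3, a receptor that restrains bone growth and is often mutated in benign skin lesions, spans 1793293 to 1808867 on chromosome 4 (gene 2261, 15.575 kb). Its nearest peak, at 1841735 to 1841950, lay 33.014 kb beyond the end of the gene opposite to its start and inside LETM1, which encodes a mitochondrial inner membrane protein and whose span is 2.612 kb from that of FGFR3. The width was 216 bp, the fold 15.57 and the score 58.96. All 3994 peaks had at least its 8 tags, 58.5% reached its score and 36.4% its fold. The next peak was 1128.589 kb away. On chromosome 4, 14.3% of 770 protein-coding genes had a peak within 100 kb.

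FGFR1, FGFR4 and FGFRL1 lay far from any listed peak. FGFR1 (gene 2260, chromosome 8, 38411143 to 38468635), the main receptor of mesenchyme, had its nearest peak 950.42 kb away. That peak had 9 tags (4.12 to 17.1) and a fold of 18.17. Only 16.7% of the 20037 genes were as far or farther from a peak, and the median gene was 236.528 kb from one. FGFRL1 (gene 53834, chromosome 4, 1010212 to 1026898) was 814.983 kb from the LETM1 peak, its nearest, a distance reached by 19.3% of genes. FGFR4 (gene 2264, chromosome 5, 177086915 to 177098144), which pairs with the co-receptor KLB to receive FGF19 in liver, was 674.504 kb from a peak of 11 tags (5.49 to 19.7) and fold 12.47 in FAM153A. For FGFR4, 23.5% of genes were as far or farther. A gene with no listed peak can still hold fewer than the 8 tags that the weakest listed peak has, so these distances do not show that p63 was absent.

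**Figure D3:**
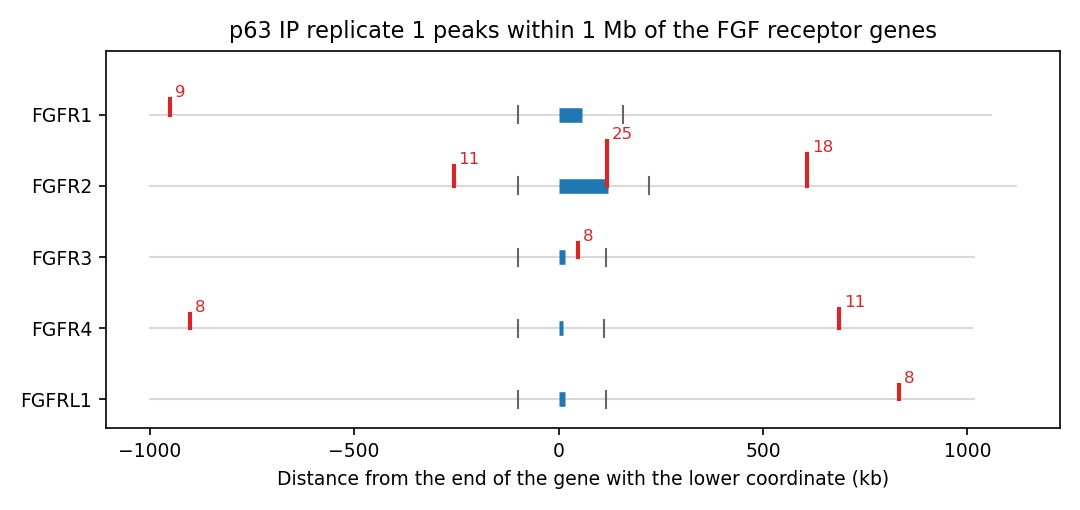
Replicate 1 peaks within 1 Mb of each FGF receptor gene, by distance in kb from the end of the gene with the lower coordinate; blue bars are gene spans, grey ticks the limits of 100 kb on either side, and red lines peaks with height in proportion to the tags printed above them. FGFR2 has the peak of 25 tags at its right end, FGFR3 has 8 tags inside the ticks, and the other genes have peaks only outside them. The peak of 8 tags drawn for FGFRL1 is the one drawn for FGFR3.

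In all, 2 of 5 genes had a summit in the span or within 100 kb, while 29.9% of all protein-coding genes did. With 50 kb, 2 of 5 did against 19.8%. With 10 kb and with the span alone, 1 of 5 did, against 10.2% and 7.10%. These shares stand beside a family chosen for its peaks, and nothing is read from them. FGFR2 is also the longest of the 5, where the median protein-coding gene spans 24.115 kb and the others span 11.23 to 57.493 kb. No peak lay near the 100 kb limit: the farthest inside it was the FGFR3 peak at 33.014 kb, and the first beyond it was a second peak near FGFR2 at 256.495 kb.

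Peak numbers farther out were set beside those of the median gene on the same chromosome. Within 1 Mb, FGFR2 had 3 peaks, FGFR4 had 2, and FGFR1, FGFR3 and FGFRL1 had 1 each. The median gene had 3 on the chromosome of FGFR2, 4 on that of FGFR4, 3 on that of FGFR1 and 1 on that of FGFR3 and FGFRL1. Within 5 Mb, FGFR1 had 6 peaks where the median gene of chromosome 8 had 17, and FGFR4 had 13 where that of chromosome 5 had 20. FGFR2 had 11 against 13 on chromosome 10, and FGFR3 and FGFRL1 had 5 against 4 on chromosome 4. Both chromosome 4 genes lie near the chromosome's end, where the 5 Mb window is cut short. The ends of the other chromosomes were not checked, so the window of FGFR4 may be cut short too. Copy number and mappability around these genes were not measured here.

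The 100 kb windows touched 18 other protein-coding genes. LETM1 was the 1 with a summit in its span, which is near the 7.10% of all protein-coding genes. The windows held none around FGFR2, 5 around FGFR3, 8 around FGFRL1, 3 around FGFR4 and 2 around FGFR1. Those without a peak included the NSD histone methyltransferase genes that sit beside the family, NSD3 near FGFR1, NSD2 near FGFR3 and NSD1 near FGFR4. TACC genes, which encode centrosomal proteins and often lie beside FGF receptor genes, were looked up after the values were seen. TACC2, 390.705 kb from FGFR2, held 1 peak, at 122085362 to 122085680, where 18 tags (10.7 to 28.4) were counted at 25.95-fold enrichment. TACC1, 259.947 kb from FGFR1, and TACC3, 48.122 kb from FGFR3, held none. ATE1, between FGFR2 and TACC2, held none either. The second peak near FGFR2, at 121221674 to 121222022, lay in no protein-coding gene and carried 11 tags (5.49 to 19.7) at a fold of 17.49.

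Whether replicate 2 holds the same sites could be asked only through the spacing of peaks. A pair of peaks counted as matched when at least 2 other pairs nearby shared its offset within 100 bp. This matched 210 of 3937 replicate 1 peaks under 1 kb wide (5.33%), and 0 of the 2 peaks at FGFR2 and FGFR3. No pair was matched within 10 Mb of the FGFR2 peak, the nearest being 31.952 Mb away, and 0 pairs were matched on chromosome 4, so the method had no local anchor for either gene. The distant peak nearest to FGFR1 was matched, and its partner in replicate 2 had 4 tags. Among the peaks most like that of FGFR2, the NEK8 peak was matched, and those of C1orf56 and LIMK2 were not.

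A second look at FGFR2, chosen after the data were seen, used the 4 matched pairs on chromosome 10 within 50 Mb. Their offsets ranged from 1759736 to 1759779 bp with a median of 1759760 bp. Replicate 2 had a peak whose offset from the FGFR2 summit departed from that median by 229 bp. This is larger than the range of the 4 pairs, but the nearest of them was 31.952 Mb away. Between that pair and FGFR2, the replicate 1 peaks with summits at 99656797 and 102642799 had a replicate 2 peak departing by 71 bp and 6 bp. Neither was matched by spacing. How far the offset shifts from there to FGFR2 was not measured, so the 229 bp does not tell whether the sites differ. The replicate 2 peak had 8 tags (3.45 to 15.8), a width of 187 bp, a fold of 205.82 and a score of 136.82. Of the 2934 replicate 2 peaks, 14.1% had at least as many tags. The next replicate 2 peak departed by 175.489 kb. Of the 70 replicate 1 peaks in that stretch, 7 (10.0%) had a replicate 2 peak within 300 bp of the median offset, the 4 pairs among them. Of the 53 peaks past the last matched pair, 3 did, FGFR2 included. That this is the same site was not tested, since the replicate 2 numbering was not placed on genes.

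Other genes of the FGF pathway were taken from lists written down with earlier results of these data known. Among the ligands, 1 of 22 had a summit in the span or within 10 kb, while 10.2% of all protein-coding genes did. It was FGF14, an intracellular family member that modulates sodium channels, with 2 peaks of 9 and 8 tags and a fold of 12.98 each. With 100 kb, 8 of 22 ligands had a peak, against 29.9%, and FGF3, FGF4 and FGF19 shared 1 peak of 10 tags among them. FGF7 and FGF10, the ligands of epithelial FGFR2, had none. Among the co-receptors and carriers, 1 of 17 had a peak within 10 kb and 8 within 100 kb, against 10.2% and 29.9%. It was SDC1, a heparan sulfate proteoglycan of epithelial surfaces, with peaks of 21 tags (13.0 to 32.1, fold 21.09) and 8 tags (fold 11.67) in its span.

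Downstream of the receptors, 3 of 21 adaptors and kinases had a peak within 10 kb and 10 within 100 kb, where 10.2% and 29.9% of all protein-coding genes did. HRAS, a RAS GTPase, held 20 tags (12.2 to 30.9) at a fold of 23.36, with the summit 799 bp from a start site. The regulatory subunit PIK3R1 held 10 tags (fold 9.72), and the phosphatase PTPN11 8 tags (fold 10.38). Of feedback and response genes, 2 of 15 had a peak within 10 kb and 7 within 100 kb, beside the same shares of all genes. ETV5, an ETS factor induced by FGF signalling, held the most tags of these, 26 (17.0 to 38.1) at a fold of 27.23. SPRED2, an inhibitor of RAS signalling, held 13 tags (6.92 to 22.2) at a fold of 19.11.

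Among other receptor tyrosine kinases, 9 of 54 had a peak within 10 kb and 19 within 100 kb, against 10.2% and 29.9% of all protein-coding genes. Of the 19, PDGFRB and CSF1R were counted through the same peaks, of 11 and 10 tags. The highest tag counts within 10 kb were at PTK7 (27 tags, fold 36.33), AXL (21 tags, fold 41.52), EPHA4 (16 tags, fold 17.25), MET (13 tags, fold 27.46) and CSF1R (11 tags, fold 20.76). The 25 tags of FGFR2 fall between PTK7 and AXL, whose intervals of 17.8 to 39.3 and 13.0 to 32.1 overlap that of FGFR2. The AXL summit was 515 bp from a start site and just outside the gene, while that of PTK7 was 12017 bp from one. The fold of FGFR2, 49.92, was above those of the 9. By spacing, the PTK7 and EPHA4 peaks were matched in replicate 2, and those of AXL, MET, CSF1R and FGFR2 were not. No pair at all was matched within 10 Mb of the FGFR2 peak, so no contrast between the genes is read from this.

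The median distance to the nearest peak was 674.504 kb in the FGF receptor family, 213.983 kb for ligands, 121.194 kb for co-receptors and carriers, 118.111 kb for adaptors and kinases, 118.486 kb for feedback and response genes and 192.788 kb for other receptor tyrosine kinases. Over all protein-coding genes it was 236.528 kb, with quartiles of 75.376 and 627.385 kb.

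**Figure D4:**
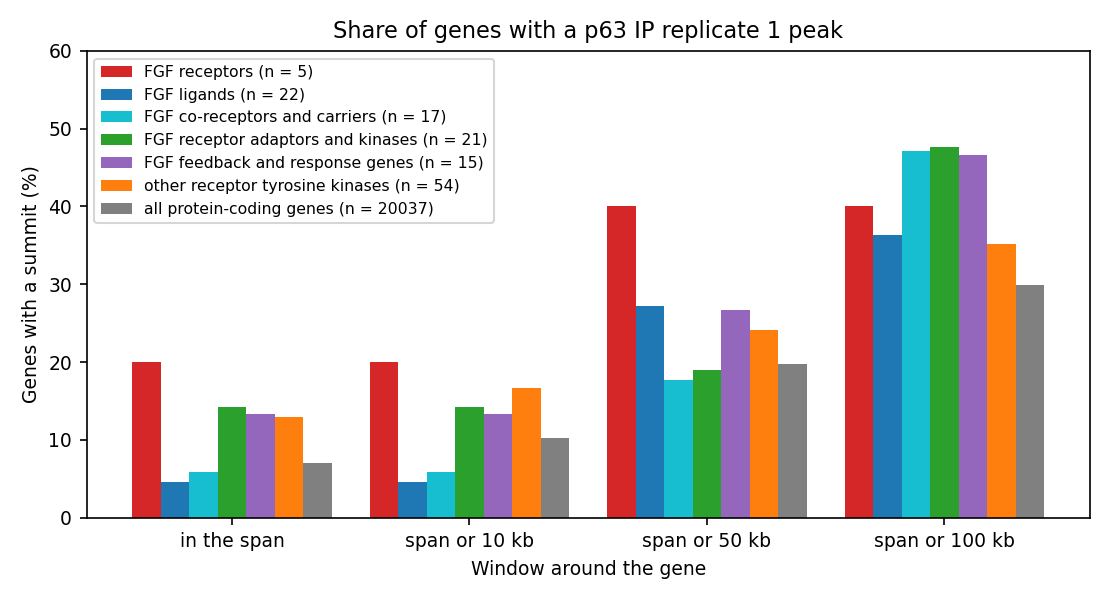
Percentage of genes with a replicate 1 summit in the span or within 10, 50 or 100 kb of it, for the FGF receptors, 5 other gene lists and all protein-coding genes (grey). For the FGF receptors the bars stand for 1, 1, 2 and 2 of 5 genes, chosen with their peaks known; the ligands and the co-receptors and carriers are below the grey bars in the span and at 10 kb, the co-receptors and carriers and the adaptors and kinases are below at 50 kb, and all lists are above the grey 29.9% at 100 kb.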

How the data were processed

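Binding of p63 in HSC-5 cells was read from the authors' peak lists of 2 IPs. MACS 1.4.2 made each list from 1 IP and 1 control, per the file headers. The submitters' processing notes name FastQC, Trimmomatic, Bowtie and the build hg19. The headers give a tag size of 76 bp, a p cut-off of 1e-05, at most 1 tag for each position and scaling of the larger library. The aligner's parameters are not given in the sources used here. The deposited tag count of a peak is a whole number without normalisation. As the deposited score, MACS gives the log10 of its p-value times minus 10, the deposited fold is the ratio of IP to scaled local control, and deposited false discovery rates are percent values. Folds and scores are the authors' own values, used only within a list.

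Replicate 1 had 22139487 IP tags, 12687447 of them kept, and 4077 peaks, 3994 on chromosomes. Replicate 2 had 4089280 and 868393 kept (6.84% of replicate 1) and 2934 peaks of at least 4 tags. Replicate 1 was read as GRCh38 because it names contigs of that build, although the notes name hg19. Its summits (start plus summit offset) were placed on RefSeq gene spans of GRCh38.p14. Start sites and sequences came from RefSeq promoter windows. No coordinate was converted between builds.

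The members, gene lists, window and matching rule were chosen with earlier results of these data known. Matching used peaks under 1 kb wide, offsets up to 5 Mb and supporting pairs 2 kb to 10 Mb away. The named genes are the 5 members, pathway genes with a summit within 10 kb, the 5 other receptor tyrosine kinases with the most tags there, the 3 genes with the most similar peak, genes in the 100 kb windows and TP63. Placement and matching were run on simulated peaks. The simulated offset was constant along each chromosome, so the simulation does not show how matching works where the offset changes. Tags have exact Poisson intervals for counting error only, since reads without molecular identifiers are not independent molecules. Alternatives in window, peak threshold and matching were run. Python 3.11.15, pandas 2.3.3, numpy 2.4.6, scipy 1.17.1 and matplotlib 3.10.9 were used.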

Additional observations from a re-analysis of the deposited data

How the results depend on the processing

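The peak at FGFR2 was kept under every window and threshold run, and the FGFR3 peak was lost when windows narrowed or scores were limited. Both outcomes follow from values given above and are no separate support. The FGFR2 summit lay inside the span with a score of 210.7 and a fold of 49.92. The FGFR3 peak lay 33.014 kb from its gene with a score of 58.96 and a fold of 15.57. Genes with a peak and peaks at these genes both numbered 2 with 100 kb, 1 with the span alone, 1 with 10 kb and 1 at a score of 100 or more. They stayed at 2 with 50 kb, at a fold of 10 or more and by overlap of the peak interval. They also stayed at 2 in settings that could not change them. A false discovery rate of 1% or less removed nothing, since the highest in the list was 0.18%. Leaving out peaks over 3 kb wide could not drop peaks of 324 and 216 bp. IP replicate 2 could be left out without effect because these counts do not use it. Without IP replicate 1 no value could be given, since replicate 2 was not placed on genes, and direct overlap of the lists was not run for the same reason. All protein-coding genes with a peak numbered 5993, and 1422 with the span, 2038 with 10 kb, 3972 with 50 kb and 1487 at a score of 100 or more. Ligands with a peak went from 8 to 1 with the span, 1 with 10 kb and 1 at a score of 100 or more. Co-receptors and carriers went from 8 to 1, 1 and 1 in the same order, and to 3 with 50 kb. Adaptors and kinases went from 10 to 3, 3 and 2, and to 4 with 50 kb. Feedback and response genes went from 7 to 2, 2 and 2, and to 4 with 50 kb. Other receptor tyrosine kinases went from 19 to 7, 9 and 6. Smaller counts in narrower windows follow from their construction. Matches to replicate 2 at FGFR2 and FGFR3 numbered 0 in every planned setting and 1 with the chromosome 10 offset, added after seeing the data. No paired analysis was possible because no input file was analysed here, each deposited list already sets 1 IP against 1 control, and no result comes from a test across samples. Replicate 2 had 868393 tags kept, and whether this depth limited the matching was not tested.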
